A study of Mus musculus with 12 samples.

Results

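Non-collagen extracellular matrix genes encode the adhesive glycoproteins, proteoglycans, elastic fibre proteins, cross-linking enzymes and basement membrane proteins that surround cells together with collagen. They were taken here as 40 mouse genes chosen by name. No measured value is in the rule, but members and lists were chosen with earlier results of these data known. Of the 40, 39 had a row among the 22896 genes of the table of untreated libraries and 36 among the 21437 genes of the table of TNF-treated libraries. In GENCODE vM21, 16 of the 40 share exon bases with a gene on the other strand, chiefly Fbn1 (20.1% of its exon bases, with Gm9913), Loxl3 (11.6%, with Htra2), Prelp (9.68%, with Gm15851) and Nid2 (8.45%, with Rtraf). The use of strand in the counting is not stated, so reads there cannot be told apart. Mfap4 had a row in neither table, and Aspn, Eln and Spon2 had one in the untreated table alone.

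Total RNA of bone marrow-derived macrophages, which are grown in culture from mouse marrow, was sequenced in 12 libraries that form 4 groups of 3. Every group carried Lyz2cre, in which Cre recombinase is placed under the lysozyme 2 gene and so acts in myeloid cells. The groups labelled Lyz2cre had no other allele named. The groups labelled Klf6fl/fl:Lyz2cre also had both copies of Klf6, a gene for a zinc-finger transcription factor, flanked by loxP sites, and are called Klf6-deleted below. Each genotype was left untreated (labelled Control) or received 10 ng/ml of the inflammatory cytokine TNF for 6 h. Strain, sex and age of the mice are not stated in the labels. Nor do they say if the replicates are different animals, so the tests weigh differences against the spread between libraries, which may be technical. Depth ran from 16.9 to 23.4 M reads per library.

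Klf6 was at 7101 ± 269 against 10118 ± 174 normalized counts without TNF and at 4161 ± 43.4 against 7447 ± 255 with TNF (Klf6-deleted first, mean ± SD, n = 3 libraries each). A value over the whole gene also counts exons outside the deleted part, so the extent of the deletion cannot be read from these values. All 10 macrophage markers on the list used were measured in every group, and they summed to 8298 to 8875 CPM (reads of the genes relative to all reads of the library) in untreated Klf6-deleted libraries and 13754 to 13850 in untreated Lyz2cre libraries. With TNF the sums were 10402 to 10424 and 11429 to 11500. Markers of stromal cells, the fibroblast-like cells of marrow that make much of its matrix, were also present. Of 18, 17 had a row in each table (Tcf21 had none), and they summed to 2443 to 2595 CPM in untreated Klf6-deleted libraries against 129 to 155 in untreated Lyz2cre libraries. In bulk RNA, fewer cells of a type and less RNA per cell cannot be told apart.

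Matrix glycoproteins such as fibronectin and the thrombospondins link cells to the fibres around them through integrins and other receptors. Small leucine-rich proteoglycans coat collagen fibrils, fibrillins and fibulins build the scaffold on which elastin is laid down, lysyl oxidases cross-link the fibres, and laminins and nidogens form the sheet under epithelial and endothelial cells. Fibroblasts and smooth muscle cells are the main producers in most tissues, while macrophages are known to make fibronectin, thrombospondin 1 and versican. In the artery wall these proteins hold lipoproteins and shape the plaque cap.

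Promoters of members named in the comparisons are shown first. Vcan and Fbn1 had the largest drop of the genotype difference with TNF among members with reads in all 4 groups, and Thbs2 and Sparc were higher in Klf6-deleted libraries in both tables. Each window runs from 250 bases before to 50 bases after a RefSeq transcription start (GRCm38.p6), in the direction of the gene. Capitals mark GGGCGG (a GC box) or CACCC on either strand, the kinds of sequence that Krüppel-like factors are known to bind.
Vcan, chr13:89742463-89742762, minus strand: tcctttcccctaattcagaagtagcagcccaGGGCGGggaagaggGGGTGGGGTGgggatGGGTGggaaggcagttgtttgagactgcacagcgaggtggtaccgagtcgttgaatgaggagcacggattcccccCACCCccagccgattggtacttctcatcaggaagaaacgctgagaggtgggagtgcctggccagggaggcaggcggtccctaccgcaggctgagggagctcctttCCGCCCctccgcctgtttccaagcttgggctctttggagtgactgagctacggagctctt
Fbn1, chr2:125506389-125506688, minus strand: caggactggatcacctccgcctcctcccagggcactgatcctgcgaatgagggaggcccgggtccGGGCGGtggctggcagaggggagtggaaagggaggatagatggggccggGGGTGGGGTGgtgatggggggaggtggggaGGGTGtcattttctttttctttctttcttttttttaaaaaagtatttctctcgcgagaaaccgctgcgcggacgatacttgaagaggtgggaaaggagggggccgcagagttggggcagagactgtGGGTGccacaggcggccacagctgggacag
Thbs2, chr17:14694213-14694512, minus strand: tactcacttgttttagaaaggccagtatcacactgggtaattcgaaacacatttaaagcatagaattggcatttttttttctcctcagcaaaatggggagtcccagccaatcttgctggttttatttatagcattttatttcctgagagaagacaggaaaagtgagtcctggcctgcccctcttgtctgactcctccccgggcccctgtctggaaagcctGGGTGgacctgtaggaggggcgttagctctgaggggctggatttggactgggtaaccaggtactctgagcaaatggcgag
Sparc, chr11:55420031-55420330, minus strand: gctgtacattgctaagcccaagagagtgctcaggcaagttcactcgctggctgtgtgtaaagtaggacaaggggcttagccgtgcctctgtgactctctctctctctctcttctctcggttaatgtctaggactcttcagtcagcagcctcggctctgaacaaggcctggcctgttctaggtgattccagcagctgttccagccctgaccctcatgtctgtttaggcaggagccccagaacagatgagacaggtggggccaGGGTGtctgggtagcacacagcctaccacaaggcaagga
The Vcan window held 2 GC boxes and 4 CACCC matches, the Fbn1 window 1 and 4, and the Thbs2 and Sparc windows no GC box and 1 CACCC match each. The RefSeq table held 30 windows for 23 of the 40 members. A GC box was in 18 of those 30 windows, or 60%, and in 35.7% of all 32851 windows, and CACCC was in 24 of 30, or 80%, and in 57.5% of all. The median GC content was 60.3% in the member windows and 52.7% in all windows, and its part in these shares was not tested. The pattern TGANTCA (an AP-1 site) was in 0 of the 30 windows and 7.81% of all, read on either strand with N for any base. An NF-kB-type site (GGG and TCCC with any 3 bases between them, on either strand) was in 4 of the 30 windows, or 13.3%, and in 5.55% of all, and the Thbs2 window held 1. A match is a description of the sequence and shows no binding.

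Without TNF, transcripts of the matrix genes were higher in Klf6-deleted than in Lyz2cre libraries across every role. Together the members made up 4355 ± 158 CPM in Klf6-deleted libraries and 586 ± 46.3 in Lyz2cre libraries (mean ± SD, n = 3 each). The single libraries ran from 4223 to 4531 and from 533 to 620, so the groups did not overlap. Thbs1 gave 24.9% of the summed reads in the Klf6-deleted group and Fn1 13.0%, and without both genes the sums were 2705 ± 87.6 and 366 ± 24.6.

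Each gene was then compared within the untreated table by limma on log2(normalized count + 1), leaving out genes that reached 1 CPM in fewer than 3 libraries. Of the 39 members with a row, 33 passed that filter. All 33 were called higher in Klf6-deleted libraries at an adjusted p below 0.05 and 0 lower, where 27.6% of all 12715 genes tested were called higher and 29.3% lower. For 8 of the 33 (Fmod, Prelp, Postn, Thbs3, Fbln1, Mfap2, Matn2 and Smoc1) only the Klf6-deleted libraries reached the filter, so those had to differ. The other 25 passed on the Lyz2cre libraries alone and were called higher as well. Of these 25, 23 were at least 2-fold higher and 16 at least 8-fold, against 5.71% and 0.986% of the 11564 genes that passed on the Lyz2cre libraries alone (11.1% and 3.00% of all genes tested). Their median log2 difference was 3.16, against -0.04 over those genes. Of all 39 members with a row, 37 had every Klf6-deleted library above every Lyz2cre library, and Lum and Eln overlapped. The 37 include all 33 that passed the filter, where 30.1% of the 12715 genes tested showed this. Aspn, Fbn2, Mfap5 and Spon2 were also separate but were below the filter, so that share does not cover them.

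The tested stromal markers moved the same way as the matrix genes. Of the 18 stromal markers 14 were tested without TNF, and 14 were higher, where 27.6% of all genes tested were. Tcf21 had no row, and Twist2, Thy1 and Gli1 did not pass the filter. Twist2 and Thy1 had every Klf6-deleted library above every Lyz2cre library. Gli1 had the reverse, at 1.55 ± 1.50 against 6.80 ± 1.17 normalized counts. Lepr, Twist1, Fap, Ebf3 and Foxc1 passed the filter through the Klf6-deleted libraries alone, the group where they are high. Smooth muscle and pericyte markers summed to 345 to 377 CPM against 23.2 to 25.2, with 4 of the 4 tested higher. Acta2 gave most of that, at a mean of 347 against 21.5 CPM. Tagln, Cnn1 and Notch3 passed the filter through the Klf6-deleted libraries alone, and Myh11, Des and Rgs5 were too low to test. Osteoblast markers summed to 47.5 to 59.0 against 4.05 to 5.75, and 3 of 3 tested were higher. Alpl (36.7 against 0.883 CPM) and Runx2 (13.7 against 3.86) gave most of that. Alpl and Sp7 passed through the Klf6-deleted libraries alone, Bglap, Ibsp and Dmp1 were under 1 CPM, and Bglap2 had no row. Endothelial markers summed to 52.6 to 65.0 against 21.6 to 22.6, with 3 of 3 higher. Kdr gave most of that, at a mean of 50.6 against 18.6 CPM, and Cdh5 and Egfl7 passed through the Klf6-deleted libraries alone. Of the 10 macrophage markers, 9 were lower and 1 was higher, against 29.3% and 27.6% of all genes tested. The part of these cell types in the matrix gene differences was not tested.

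Markers of other blood cells and of adipocytes were summed in the same way, in Klf6-deleted against Lyz2cre libraries. Of all genes tested, 27.6% were called higher and 29.3% lower without TNF, and 26.5% and 30.8% with TNF. Monocyte and granulocyte markers summed to 653 to 677 CPM against 515 to 567 without TNF, with 6 of 9 higher and 3 lower, and to 55.2 to 61.7 against 35.9 to 45.9 with TNF, with 1 of 7 higher and 3 lower. Megakaryocyte and platelet markers summed to 168 to 236 against 149 to 162, with 2 of 4 higher, and with TNF to 153 to 171 against 88.8 to 91.2, with 4 of 4 higher. Pf4 gave most of these sums. Its means were 177 against 145 CPM without TNF, where it was not called, and 157 against 87.8 with TNF. Itga2b, Gp1ba and Ppbp were tested with TNF through the Klf6-deleted libraries alone. Lymphocyte markers summed to 3.33 CPM or less in every library, and none passed the filter. Of 4 adipocyte markers 0 of 2 tested without TNF were called, and none had a row in the TNF table.

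**Figure D1:**
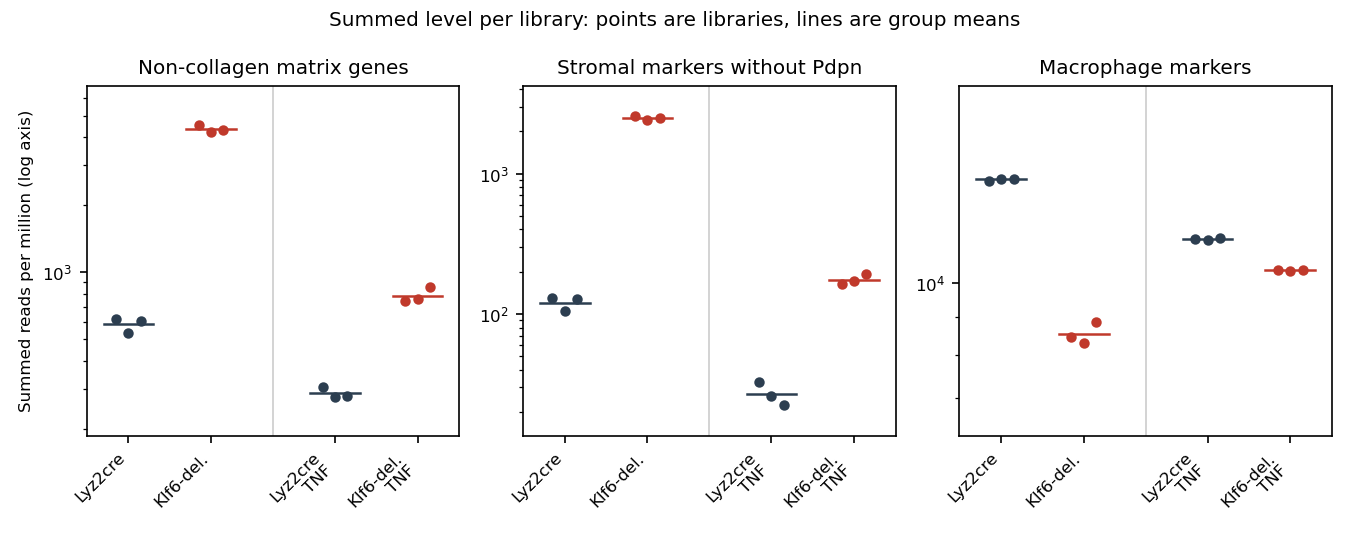
Summed level in CPM per library (y axis, log scale, with its own range in each panel) for the matrix genes, the stromal markers without Pdpn and the macrophage markers, in the 4 groups of 3 libraries. Points are libraries and lines are group means. The untreated Klf6-deleted libraries stand highest in the first 2 panels, at 4223 to 4531 and 2403 to 2558 CPM, and lowest in the macrophage panel.

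The adhesive and matricellular glycoproteins included the most abundant members. Thbs1 (ENSMUSG00000040152, chromosome 2, 118111876 to 118127133, plus strand, GRCm38) encodes thrombospondin 1, a secreted glycoprotein that binds CD36 and CD47 and activates TGF-beta. It was at 21322, 19281 and 21074 normalized counts in the Klf6-deleted libraries and 3531, 2851 and 3361 in the Lyz2cre libraries. Every Klf6-deleted library was far above the Lyz2cre ones, 6.35-fold higher on the log2(value + 1) scale (log2 difference 2.67, SE 0.0592, limma adjusted p = 9.1e-17). With TNF, Thbs1 was at 2131, 2035 and 2477 against 617, 566 and 590.5, lower in both genotypes than without TNF and still 3.73-fold higher in Klf6-deleted libraries (log2 difference 1.90, SE 0.0714, limma adjusted p = 1.2e-12).

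Fn1 (ENSMUSG00000026193, chromosome 1, 71585520 to 71653200, minus strand) encodes fibronectin, to which cells attach through integrins. Without TNF it was at 11487, 10454 and 10249 normalized counts in the Klf6-deleted libraries and 1349, 1236 and 1376 in the Lyz2cre libraries. The groups lay 8.12-fold apart (log2 difference 3.02, SE 0.0484, limma adjusted p = 1.3e-18). With TNF the libraries were at 2752, 2691 and 3238 against 889, 844 and 873, a 3.32-fold difference with no overlap (log2 difference 1.73, SE 0.0660, limma adjusted p = 1.4e-12).

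Sparc (osteonectin, a collagen-binding matricellular protein) was at 7033, 6404 and 6544 normalized counts in the Klf6-deleted libraries and 532, 425 and 552 in the Lyz2cre libraries. That is 13.3-fold higher (log2 difference 3.73, SE 0.0726, limma adjusted p = 1.6e-17), and with TNF, at 303, 353 and 435 against 67.6, 79.3 and 47.0, it was 5.62-fold higher (log2 difference 2.49, SE 0.182). Fstl1, a secreted relative of SPARC, was at 4099, 3938 and 4202 against 388, 282 and 304 without TNF and 269, 226 and 249.8 against 100.5, 44.3 and 40.1 with TNF, with no overlap in either table. Its folds were 12.6-fold and 4.34-fold. The first Lyz2cre TNF library was the highest of its group for Fstl1 by more than the spread of the other pair.

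Thbs2, a relative of Thbs1 known as an inhibitor of vessel growth, had the largest difference without TNF among members with reads in both groups. Its untreated values were 2323, 2249 and 2258 against 95.2, 83.5 and 73.3, 26.9-fold higher (log2 difference 4.75, SE 0.0873, limma adjusted p = 8e-18). With TNF it was at 68.2, 70.9 and 75.8 against 22.9, 3.09 and 9.17, 7.27-fold higher (limma adjusted p = 6.6e-05). The Lyz2cre TNF libraries varied most here, and leaving out the first or the second of them moved the log2 difference to 3.49 or 2.22. Tnc, for tenascin C, a protein of wounded and inflamed tissue, was at 2914, 2426 and 2159.6 against 346, 205 and 339 without TNF and 416, 532 and 518 against 150.2, 121 and 104 with TNF. Both differences held without overlap, at 8.58-fold and 3.89-fold.

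Postn (periostin) was at 408, 448 and 235 against 21.9, 10.9 and 23.0 without TNF, 18.8-fold higher. With TNF, at 22.4, 14.5 and 12.6 against 0, 2.06 and 2.29, it did not pass the filter, although the groups did not overlap. Smoc1, a calcium-binding relative of SPARC, was at 201, 158 and 167 against 9.85, 19.4 and 7.66 without TNF (14.1-fold higher) and 26.2, 27.3 and 29.2 against 9.95, 0 and 4.59 with TNF (7.23-fold). In Smoc1, leaving out the first or the second Lyz2cre TNF library moved the log2 difference with TNF from 2.85 to 3.59 or 1.87. Thbs3, a further thrombospondin, was at 40.3 ± 13.8 against 5.70 ± 2.13 without TNF and at 4.37 ± 2.69 against 2.42 ± 2.49 with TNF, where the groups overlapped and the gene was too low to test. Spon2 (spondin 2) was at 25.9 ± 9.56 against 4.05 ± 2.46 without TNF, below the filter. Of the 10 genes of this role, 9 were tested without TNF and 7 with TNF, and all of those were higher in the Klf6-deleted libraries. Of all genes tested, 27.6% and 26.5% were. Postn, Thbs3 and Smoc1 without TNF, and Thbs2 and Smoc1 with TNF, passed the filter through the Klf6-deleted libraries alone.

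**Figure D2:**
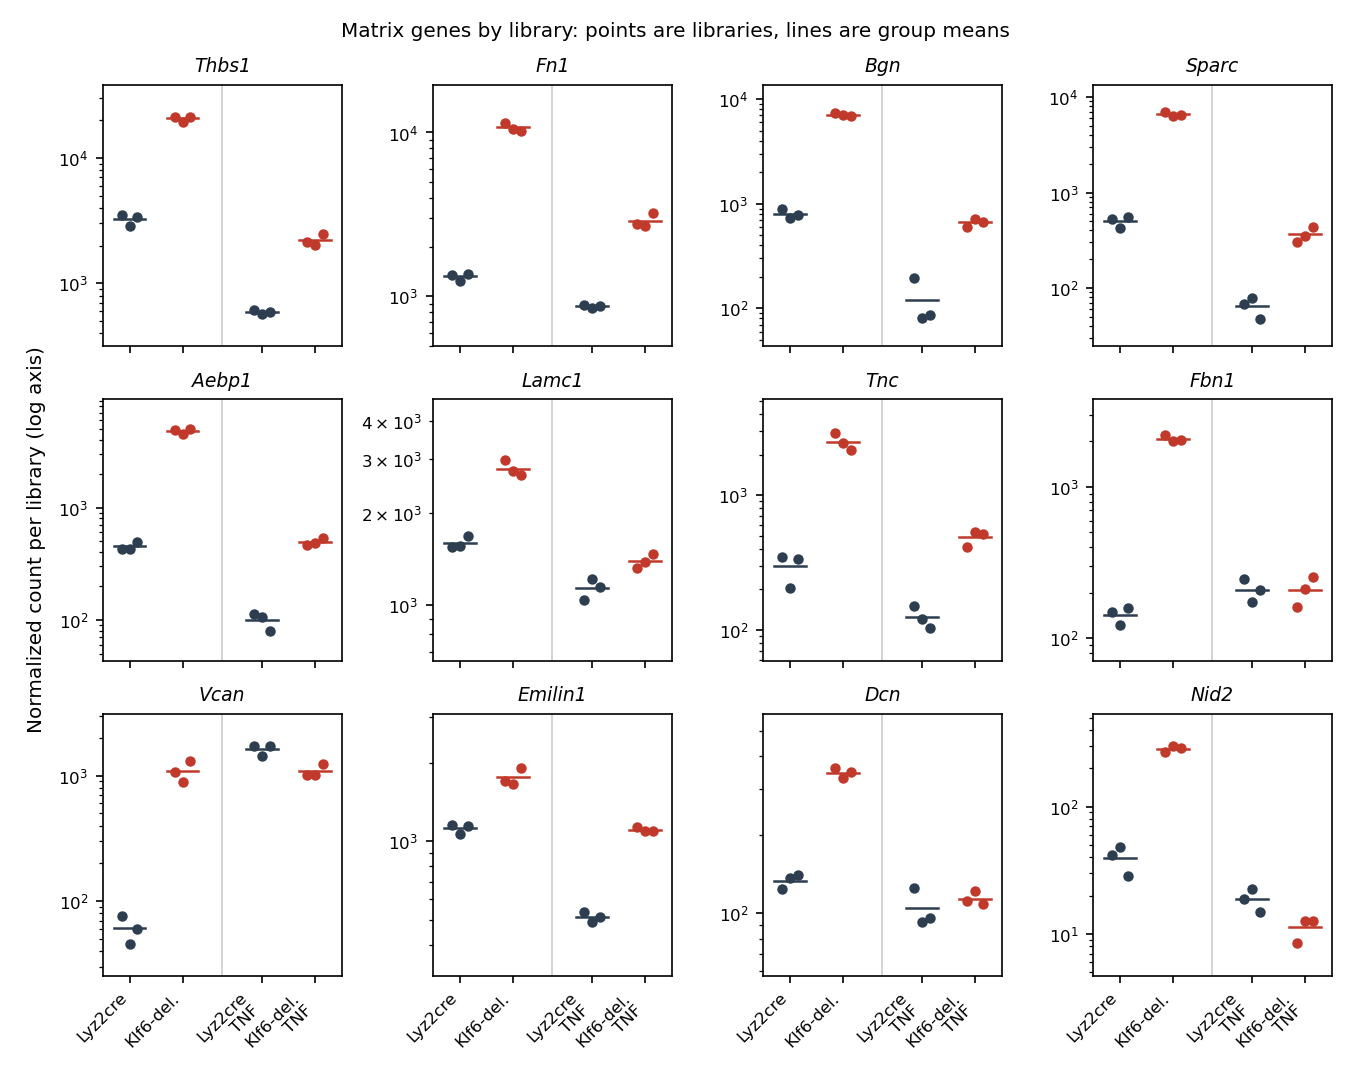
Normalized count per library (y axis, log scale, with its own range in each panel) of 12 matrix genes in the 4 groups. Points are libraries, lines are group means, and the grey line separates the tables, which were normalized separately and are not to be compared across it in height. In each panel the untreated Klf6-deleted libraries stand above the untreated Lyz2cre ones, least in Emilin1 (1.57-fold). With TNF, Vcan and Nid2 stand lower in the Klf6-deleted libraries and Fbn1 and Dcn overlap.

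The small leucine-rich proteoglycans were led by Bgn (biglycan, on chromosome X), at 7356, 7065 and 6889 normalized counts in the Klf6-deleted libraries and 882, 731 and 778 in the Lyz2cre libraries without TNF. It was 8.93-fold higher (log2 difference 3.16, SE 0.0558, limma adjusted p = 4.4e-18) and with TNF, at 603, 711 and 674 against 195, 81.3 and 86.0, 5.91-fold higher. The first Lyz2cre TNF library again stood above the other pair. Ogn (osteoglycin) was 22.6-fold higher without TNF, at 1037, 971 and 983 against 55.8, 32.7 and 43.8. With TNF it was almost unread, at 8.41, 5.45 and 6.80 against 0, 0 and 1.15, and was not tested.

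Fmod, for fibromodulin, which regulates collagen fibril assembly, was at 60.9, 85.7 and 68.2 in untreated Klf6-deleted libraries and had no read in any untreated Lyz2cre library. Set against a floor of 3 reads per Lyz2cre library, it was at least 21.1-fold higher. With TNF it had 3 reads or fewer in every library, so no fold is given. Prelp, which anchors basement membranes to collagen, was at 180.5 ± 41.5 against 15.3 ± 6.67 without TNF and at 3.40 ± 2.32 against 1.36 ± 1.58 with TNF, the latter too low to test.

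Dcn (decorin, a TGF-beta-binding proteoglycan) differed less than the other tested genes of this role. Without TNF it was at 361, 328 and 347 against 124, 137 and 140.0, 2.58-fold higher (log2 difference 1.37, SE 0.104, limma adjusted p = 2.3e-09). With TNF it was at 111, 122 and 109 against 125, 92.7 and 96.3 and the groups overlapped (log2 difference 0.13, SE 0.160, limma adjusted p = 0.503). When values were scaled to library totals instead, Dcn with TNF passed the test, at a log2 difference of 0.46 (limma adjusted p = 0.0171). Aspn (asporin) was at 19.7 ± 5.35 against 1.13 ± 1.10 and Lum (lumican) at 7.15 ± 1.88 against 8.22 ± 5.27 without TNF, neither tested. Of the 7 genes of this role, 5 were tested without TNF and 5 were higher, and with TNF Bgn was higher and Dcn did not pass. Without TNF 27.6% of all genes tested were higher, and Fmod and Prelp passed the filter through the Klf6-deleted libraries alone.

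Vcan (ENSMUSG00000021614, chromosome 13, 89655312 to 89742509, minus strand, GRCm38) encodes versican, a large hyaluronan-binding proteoglycan that monocytes and macrophages are known to make. Without TNF it was at 1058, 885 and 1312 normalized counts in the Klf6-deleted libraries and 76.6, 46.0 and 60.2 in the Lyz2cre libraries. All Klf6-deleted libraries were higher, by 17.7-fold (log2 difference 4.14, SE 0.157, limma adjusted p = 1.3e-13). With TNF the order turned: the Klf6-deleted libraries were at 1005, 1014 and 1233 and the Lyz2cre libraries at 1721, 1434 and 1709.5. Every Lyz2cre library was then the higher one, by 1.50-fold (log2 difference -0.58, SE 0.0833, limma adjusted p = 1.7e-05). Vcan was the one member of the 23 tested with TNF that was called lower. Scaled to library totals it was also lower, at -0.25 (limma adjusted p = 0.00796), but the libraries were no longer separate, at 61.1, 61.7 and 74.9 CPM against 82.9, 70.8 and 81.8.

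The level of Vcan in Klf6-deleted libraries was close with and without TNF, at 57.2 ± 11.2 CPM without and 65.9 ± 7.81 with TNF (n = 3 each). In Lyz2cre libraries it was 2.93 ± 0.753 without and 78.5 ± 6.71 with TNF, 26.8-fold apart. These levels come from tables that were normalized separately and were not tested across them. The difference of the genotype differences was tested, and for Vcan it was -4.73, SE 0.210, limma adjusted p = 3.7e-13.

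Among the elastic fibre and microfibril genes, Fbn1 (ENSMUSG00000027204, chromosome 2, 125300594 to 125507993, minus strand) encodes fibrillin 1, the main protein of microfibrils. Without TNF it was at 2199, 2012 and 2034 normalized counts in the Klf6-deleted libraries and 149, 122 and 159 in the Lyz2cre libraries, 14.5-fold higher (log2 difference 3.86, SE 0.0854, limma adjusted p = 9.1e-17). With TNF it was at 159.7, 211 and 254 against 245, 173 and 208, and the groups overlapped fully (log2 difference -0.01, SE 0.162, limma adjusted p = 0.949). Scaled to library totals the TNF difference was 0.31 with a limma adjusted p of 0.0828, so its sign depended on the scaling and the test was not passed either way. The difference of genotype differences was -3.87, SE 0.205, limma adjusted p = 5.7e-12.

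Emilin1, which joins elastic fibres to microfibrils, had the smallest difference without TNF and a larger one with TNF. Without TNF it was at 1698, 1663 and 1915 against 1153, 1067 and 1139.7, 1.57-fold higher (log2 difference 0.65, SE 0.0563, limma adjusted p = 1.4e-08). With TNF it was at 1134, 1089.5 and 1091 against 536, 490.0 and 513, 2.15-fold higher (log2 difference 1.11, SE 0.0652, limma adjusted p = 3.9e-10). It was the one member whose genotype difference was called larger with TNF (0.46, SE 0.0848, limma adjusted p = 0.00016).

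The fibulins, which bridge elastin, fibrillin and basement membranes, were higher in untreated Klf6-deleted libraries. Fbln2 was at 1351, 1389 and 1299 against 90.8, 55.7 and 77.7 without TNF (18.1-fold higher) and 214, 197 and 246 against 40.8, 22.6 and 16.1 with TNF (8.55-fold higher). Fbln5, needed for elastic fibre assembly, was at 414, 448 and 404 against 30.6, 31.5 and 23.0 without TNF, 14.5-fold higher, and at 10.0 ± 0.676 against 3.50 ± 0.448 with TNF, below the filter. Fbln1 was at 197 ± 3.97 against 20.6 ± 4.87 without TNF and at 12.8 ± 1.94 against 4.28 ± 1.38 with TNF, the latter also below it.

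Efemp2 (fibulin 4) was at 930.2 ± 31.9 against 318 ± 8.92 without TNF (2.92-fold higher) and 217 ± 14.4 against 133 ± 7.21 with TNF (1.63-fold higher, limma adjusted p = 0.00012). Elastin itself, the core of elastic fibres, was hardly read: Eln was at 2.22 ± 3.85 against 1.09 ± 1.09 without TNF. The microfibril genes Mfap2, Mfap5 and Fbn2 were also low, at 32.6 ± 7.39 against 6.11 ± 2.63, 4.83 ± 1.76 against 1.86 ± 0.564 and 8.21 ± 4.86 against 0.729 ± 0.632 without TNF, and of these Mfap2 alone passed the filter and was higher (limma adjusted p = 0.00014). Of the 11 genes of this role, 7 were tested without TNF and 7 were higher, and with TNF 3 of 4 tested were higher. Of all genes tested, 27.6% and 26.5% were. Fbln1 and Mfap2 without TNF, and Fbln2 with TNF, passed the filter through the Klf6-deleted libraries alone.

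The lysyl oxidase-like enzymes, which cross-link collagen and elastin, were higher in Klf6-deleted libraries in both tables. Loxl2 was at 1404, 1345 and 1291 normalized counts in the Klf6-deleted libraries and 64.6, 44.8 and 78.8 in the Lyz2cre libraries without TNF, 21.7-fold higher. With TNF, at 82.2, 105 and 109.8 against 19.9, 7.21 and 4.59, it had the largest difference of the members tested there, 10.1-fold (log2 difference 3.33, SE 0.391, limma adjusted p = 1.9e-06). Loxl1 was at 1868 ± 28.1 against 179 ± 11.2 without TNF (10.4-fold) and 126 ± 35.8 against 32.0 ± 13.2 with TNF (3.94-fold).

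Loxl3 was at 1571 ± 56.2 against 554 ± 36.4 without TNF (2.83-fold) and 284 ± 17.5 against 83.4 ± 9.60 with TNF (3.39-fold). Aebp1, a collagen-binding protein that assists fibre formation, was at 4957, 4504 and 5014 against 430.0, 429.8 and 497 without TNF, 10.7-fold higher (log2 difference 3.41, SE 0.0597, limma adjusted p = 4e-18), and with TNF, at 466, 481 and 537 against 113, 105 and 79.1, 4.99-fold higher. All 4 genes had every Klf6-deleted library above every Lyz2cre library in both tables, as had 30.1% of genes tested without TNF and 29.9% with TNF. Loxl1 and Loxl2 passed the filter with TNF through the Klf6-deleted libraries alone.

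Basement membrane genes were higher without TNF in all 7 cases, counting Matn2 (matrilin 2), where 27.6% of all genes tested were higher. Matn2 passed the filter through the Klf6-deleted libraries alone. Lamc1, the gamma chain shared by most laminins, was abundant in all 4 groups, at 2977, 2734 and 2650.0 against 1550.5, 1553 and 1674 without TNF and 1323, 1378 and 1472 against 1035, 1219 and 1139.7 with TNF. It was 1.75-fold higher without TNF and 1.23-fold with TNF (limma adjusted p = 0.00112). The partner chains were further apart: Lamb1 was at 1108 ± 64.5 against 139 ± 12.3 (7.92-fold) and Lama4, a laminin chain of vessels, at 503 ± 34.3 against 55.7 ± 1.21 (8.88-fold) without TNF.

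With TNF, Lamb1 was at 101, 100.0 and 123 against 19.9, 11.3 and 16.1, 6.63-fold higher, and Lama4 at 46.7, 26.4 and 51.5 against 9.95, 2.06 and 1.15, 9.84-fold. Without the first Lyz2cre TNF library the log2 difference of Lama4 rose from 3.30 to 4.00. Hspg2, for perlecan, the heparan sulfate proteoglycan of basement membranes, was at 2744 ± 218 against 353 ± 27.2 without TNF (7.76-fold) and 221, 244 and 329 against 79.6, 25.7 and 21.8 with TNF (7.15-fold).

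The nidogens, which connect laminin to type IV collagen, differed from each other with TNF in the deposited values. Nid1 was at 1452 ± 117 against 134 ± 44.9 without TNF (11.2-fold higher) and 69.1, 79.1 and 69.0 against 12.9, 8.24 and 20.6 with TNF (5.21-fold higher). Nid2 was at 269, 298 and 287 against 41.6, 48.4 and 28.4 without TNF, 7.22-fold higher, but with TNF at 8.41, 12.7 and 12.6 against 18.9, 22.6 and 14.9, where every Lyz2cre library was above every Klf6-deleted one. In CPM the groups overlapped, at 0.511, 0.774 and 0.768 against 0.911, 1.12 and 0.713. At those counts Nid2 was below the filter and was not tested with TNF. The difference of its genotype differences was -3.55, SE 0.365, limma adjusted p = 1.1e-07. Matn2 was at 55.8 ± 15.2 against 25.2 ± 11.1 without TNF and at 10.0 ± 1.39 against 7.59 ± 4.49 with TNF, where it overlapped and was not tested.

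With TNF, 23 of the 36 members with a row passed the filter, and 8 of them (Thbs2, Fbln2, Loxl1, Loxl2, Nid1, Lamb1, Lama4 and Smoc1) through the Klf6-deleted libraries alone, so those had to differ. Of the 23, 20 were called higher and 1 lower, where 26.5% of the 11717 genes tested were called higher and 30.8% lower. Among the 15 that passed on the Lyz2cre libraries alone, 12 were higher and 1 lower, against 23.7% and 33.6% of the 10721 genes that passed that way. Of the 15, 10 were at least 2-fold higher and 0 at least 8-fold, against 4.12% and 0.0466% of those genes (8.13% and 0.529% of all genes tested). Their median log2 difference was 1.76, against -0.04 over those genes. Of all 36 members, 24 had every Klf6-deleted library above every Lyz2cre library, 2 (Vcan and Nid2) the reverse, and 10 overlapped. The 24 were the 20 called higher and Ogn, Postn, Fbln1 and Fbln5, which were below the filter, as was Nid2. Among the 11717 genes tested the shares were 29.9% and 33.3%, which do not cover genes below the filter. In CPM the same 24 were separate, together with Dcn and Fmod, and Vcan and Nid2 overlapped.

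The markers moved with these genes in part. With TNF the stromal markers summed to 292 to 317 CPM in Klf6-deleted libraries and 223 to 238 in Lyz2cre libraries, and of 10 tested 8 were higher while Fap and Pdpn were lower. Of all genes tested 26.5% were higher, and Pdgfra and Cxcl12 were tested through the Klf6-deleted libraries alone. Pdpn, which activated macrophages also express, gave most of the sum in Lyz2cre libraries. Without it, a choice made after its values were seen, the sums were 165 to 192 against 22.3 to 32.7. Smooth muscle and pericyte markers summed to 23.7 to 26.1 against 3.24 to 4.67, with Myh11 and Des at 0 or without a row in both genotypes. Acta2 gave most of that, at a mean of 24.3 against 3.09 CPM, and was the only one tested. Osteoblast markers summed to 7.79 to 9.72 against 4.12 to 6.71, mostly from Runx2, at a mean of 7.64 against 5.28 CPM, which was not called. The endothelial sum went the other way, at 33.2 to 33.9 against 83.9 to 107 CPM, and Kdr gave nearly all of it, at 32.8 against 97.3. Cdh5 was also called lower, at 0.382 against 1.49 CPM. Tek, Emcn, Egfl7 and Tie1 were under 1 CPM and not tested, with slightly higher means in Klf6-deleted libraries. Of 10 macrophage markers 6 were lower and 4 higher, against 30.8% and 26.5% of all genes tested. The part of other cell types in the differences with TNF was not tested.

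The first Lyz2cre TNF library had the highest value of its group for 20 of the 23 members tested. It also had the highest stromal sum of its group without Pdpn, at 32.7 CPM against 25.8 and 22.3. With Pdpn included, its stromal sum was instead the lowest of the group, at 223 CPM against 238 and 231. Among the Klf6-deleted TNF libraries, the third was highest for 16 of the 23 members. Its stromal sum was the highest without Pdpn (192 against 165 and 171) and with it (317 against 291.6 and 291.7). The direction of all 21 calls with TNF was the same without each library in turn, wherever the gene was still tested.

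**Figure D3:**
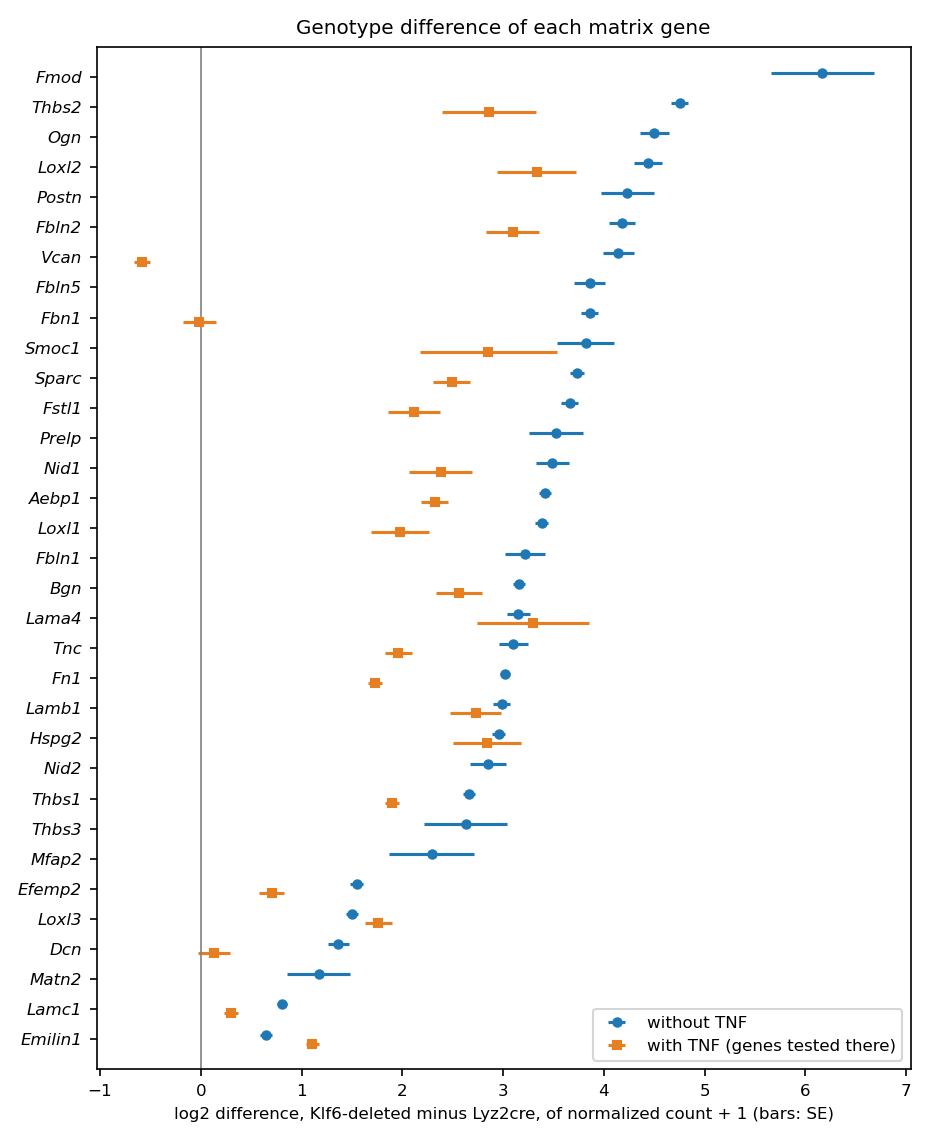
Log2 difference between genotypes, Klf6-deleted minus Lyz2cre, of log2(normalized count + 1) for the 33 matrix genes that passed the filter without TNF (blue circles) and the 23 that also passed with TNF (orange squares). Bars are standard errors, and the value of Fmod depends on the added 1 since its untreated Lyz2cre libraries had no reads. All blue points lie right of 0, and among the orange points Vcan lies left of 0, at -0.58, and Fbn1 close to 0, at -0.01.

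The genotype differences were smaller with TNF for most members. The difference of the log2 differences, with TNF minus without, was tested by limma over all 12 libraries for the 33 members that passed the filter in at least 1 table. It was called below 0 for 22 and above 0 for 1, where 25.0% and 24.2% of 12975 genes were, though 8 of the 33 passed without TNF through the Klf6-deleted libraries alone. Of the 23 members tested in both tables, 15 were below 0, Emilin1 was above, and 7 (Bgn, Loxl2, Loxl3, Lamb1, Lama4, Hspg2 and Smoc1) did not pass. Loxl2 missed narrowly (-1.11, SE 0.455, limma adjusted p = 0.0514) and was below 0 with edgeR (adjusted p = 0.0155) and DESeq2 (adjusted p = 0.000404). Bgn was below 0 with edgeR (adjusted p = 0.00445) and Smoc1 with DESeq2 (adjusted p = 0.0329), and Loxl3 was above 0 when scaled to library totals (limma adjusted p = 0.00649). Over the 15 members that passed on the Lyz2cre libraries alone in both tables, 11 were below 0 and 1 above, against 26.1% and 26.3% of 10377 such genes. Of the 10 tested without TNF alone, 7 were below 0. For those low genes the added 1 shrinks the difference with TNF, so their values depend on it.

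Among the members tested in both tables, Vcan and Fbn1 were followed by Thbs2 (-1.89, SE 0.522, limma adjusted p = 0.00546), Fstl1 (-1.54, SE 0.307, limma adjusted p = 0.00033) and Loxl1 (-1.40, SE 0.318, limma adjusted p = 0.00112). Fn1 (-1.29, SE 0.0888, limma adjusted p = 3e-10), Sparc (-1.24, SE 0.211, limma adjusted p = 6.2e-05) and Dcn (-1.23, SE 0.187, limma adjusted p = 1.7e-05) dropped by similar amounts. Thbs1 dropped less (-0.77, SE 0.103, limma adjusted p = 4e-06), and Lamc1 least of the genes called below 0 (-0.51, SE 0.0874, limma adjusted p = 7.6e-05). Hspg2 and Lamb1 were near 0, at -0.12 and -0.26 (limma adjusted p = 0.828 and 0.391), and their standard errors of 0.411 and 0.239 leave room for a change in either direction.

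Levels in CPM are set beside these differences. In Klf6-deleted libraries 35 of the 36 members with a row in both tables were lower with TNF than without, with a median ratio of 8.95, and Vcan was higher. In Lyz2cre libraries 32 of 36 were lower, with a median ratio of 4.66, and Vcan, Fbn1, Fmod and Mfap5 were higher, the last pair at under 1 CPM. The summed members stood at 783 ± 61.1 CPM in Klf6-deleted and 288 ± 15.5 in Lyz2cre libraries with TNF (n = 3 each). The stromal markers without Pdpn were lower with TNF too, at 176 ± 14.0 from 2487 ± 78.4 in Klf6-deleted libraries and 26.9 ± 5.27 from 121 ± 13.5 in Lyz2cre libraries. With Pdpn included, the stromal sum was also lower in Klf6-deleted libraries, at 300 ± 14.6 from 2527 ± 77.2. In Lyz2cre libraries that full sum was higher with TNF, at 231 ± 7.47 from 145 ± 14.2, since Pdpn alone was at 204 from 24.0 CPM. No test was made between untreated and TNF-treated libraries, and the part of stromal cells in these levels was not tested.

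Single genes differed widely in this ratio. In Klf6-deleted libraries Thbs2 was at 120.1 ± 1.79 CPM without and 4.36 ± 0.233 with TNF, and Ogn at 52.6 ± 1.68 and 0.419 ± 0.0901. Emilin1, at 92.8 ± 7.02 and 67.2 ± 1.57, and Lamc1, at 147 ± 8.68 and 84.6 ± 4.51, were closest together among the abundant members besides Vcan. In Lyz2cre libraries Fn1 was at 63.6 ± 3.94 and 42.1 ± 0.654, and Thbs1 at 156 ± 18.0 and 28.6 ± 0.942. With TNF, Fn1 gave 22.5% of the summed member reads in Klf6-deleted libraries and Thbs1 17.2%, and Vcan gave 27.3% in Lyz2cre libraries. These shares also depend on exon length, which is 11.7 kb for Fn1.

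Per kb of exon, which allows genes to be compared within a table, Thbs1 was the highest member in untreated libraries of both genotypes, at 3385 ± 183 normalized counts per kb in Klf6-deleted and 535 ± 58.3 in Lyz2cre libraries. In the Klf6-deleted libraries Sparc followed at 1758 ± 87.2, and Aebp1 and Bgn, at 1189 ± 68.9 and 1165 ± 38.7, did not differ beyond their spread. In the Lyz2cre libraries Emilin1 followed at 227 ± 9.45 and Lamc1 at 193 ± 8.49, and Sparc and Bgn came next at 133 ± 18.1 and 131 ± 12.7. With TNF, Thbs1 at 365 ± 38.3 and Fn1 at 248 ± 25.6 led in Klf6-deleted libraries. Lamc1 at 137 ± 11.1, Vcan at 112 ± 11.2, Emilin1 at 104 ± 4.67 and Thbs1 at 97.3 ± 4.16 led in Lyz2cre libraries, and Vcan and Emilin1 did not differ beyond their spread.

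**Figure D4:**
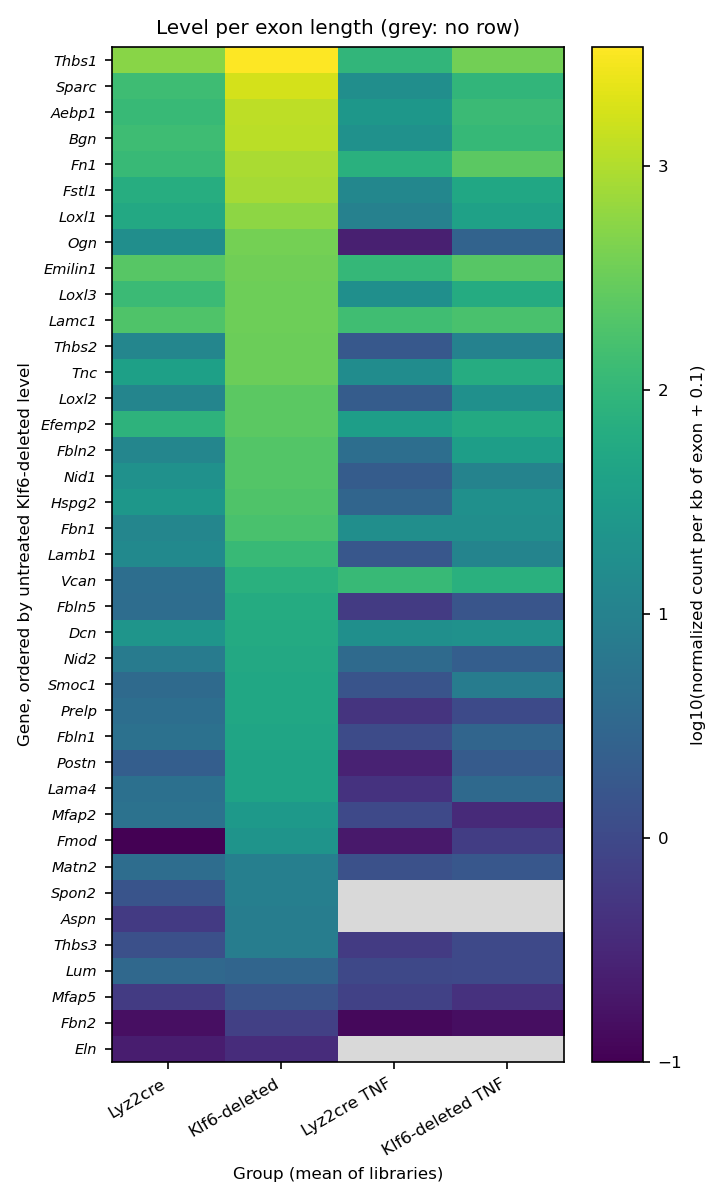
Mean level of each matrix gene per group as log10(normalized count per kb of exon + 0.1), genes ordered by their level in untreated Klf6-deleted libraries. Columns are the 4 groups, grey marks genes with no row in the TNF table, and the untreated and TNF columns were normalized separately. The untreated Klf6-deleted column is the brightest for nearly every gene, and Vcan is brightest in the Lyz2cre TNF column.

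Of 70 further non-collagen matrix genes, 27 were tested without TNF, and 21 were higher and 2 lower, against 27.6% and 29.3% of all genes (median log2 difference 2.15, against -0.01). Lox, the founding lysyl oxidase, was at 8117 ± 721 against 458 ± 26.8 normalized counts, 17.7-fold higher (log2 difference 4.14, SE 0.0581, limma adjusted p = 1.8e-19). Svep1, a large adhesion protein, was at 286 ± 8.36 against 24.0 ± 3.01, Tnn, a tenascin, at 223 ± 43.3 against 17.1 ± 8.92 and Lama1, a laminin chain, at 36.6 ± 9.13 against 1.17 ± 1.21. Svep1, Tnn and Lama1 passed the filter through the Klf6-deleted libraries alone, as did Lama5, Efemp1, Ltbp4, Smoc2, Spon1, Loxl4 and Npnt. All of these are among the higher genes, so the count and the median partly follow from the filter. The lower pair were Lama3 and Tgfbi.

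With TNF, 15 of the 70 were tested, and 7 were higher and 5 lower (median 0.14), against 26.5% and 30.8% of all genes. Agrn (agrin, a heparan sulfate proteoglycan) was at 1210.2 ± 72.0 against 7343 ± 757, 6.05-fold lower in Klf6-deleted libraries (log2 difference -2.60, SE 0.0665, limma adjusted p = 1e-14). Tgfbi, an integrin-binding protein that macrophages make, was at 7439 ± 207 against 29343 ± 513, 3.94-fold lower, and Fgl2, a fibrinogen-like protein, at 410.2 ± 13.4 against 2063 ± 451, 4.93-fold lower. Podnl1, a small leucine-rich protein, was higher, at 33.3 ± 9.17 against 4.37 ± 5.69. Podnl1 and Ltbp1, also higher, passed the filter through the Klf6-deleted libraries alone. The difference of genotype differences was called below 0 for 16 of 26 and above 0 for 2, against 25.0% and 24.2% of all genes. Some of the 26 passed without TNF through the Klf6-deleted libraries alone.

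Of 31 matrix receptors and hyaluronan genes, 25 were tested without TNF, and 15 were higher and 7 lower (median 0.82), where 27.6% of all genes tested were higher and 29.3% lower. The largest differences were those of Sdc2, a syndecan, at 749 ± 66.8 against 63.4 ± 3.93 (11.6-fold), the collagen receptors Ddr1, at 359 ± 18.3 against 37.8 ± 14.2, and Ddr2, at 689 ± 55.5 against 90.9 ± 8.59, and the hyaluronan synthase Has2, at 99.8 ± 11.5 against 10.7 ± 4.38, which passed the filter through the Klf6-deleted libraries alone. Itga1, Itga3 and Bcam, also higher, passed in the same way. With TNF 26 were tested, and 10 were higher and 14 lower (median -0.34), against 26.5% and 30.8% of all genes. Has2, Ddr2 and Sdc2 were again among the higher ones, at 38.0 ± 5.42 against 5.09 ± 5.97, 58.9 ± 5.33 against 8.83 ± 4.98 and 42.5 ± 3.23 against 7.34 ± 3.47, all 3 tested there because of the Klf6-deleted libraries alone. The same holds for Ddr1 and Mrc2, also higher. Itgb8, a chain of an integrin that activates TGF-beta, was 5.12-fold lower, at 72.2 ± 1.15 against 375 ± 33.6 (log2 difference -2.36, SE 0.124, limma adjusted p = 8.8e-11).

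The deposited values are relative to each table's own size factors, and scaling to library totals instead moved the median log2 difference of all genes by 0.13 without TNF and 0.33 with TNF. Under that scaling higher calls were 68.0% of all calls without TNF, against 48.5%, and 80.4% with TNF, against 46.2%. The member counts were 33 higher and 0 lower without TNF, and 21 higher and 1 lower with TNF.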

How the data were processed

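Total RNA from 12 libraries of mouse bone marrow-derived macrophages was prepared with a stranded kit with ribosomal RNA removal, per the labels' protocols. Cufflinks and the builds GRCm39 and mm10 are named in the submitters' processing notes, without role. No source used here names the aligner, the counting or the use of strand.

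Per the file headers, the authors deposited a normalized signal for each gene and library in 2 tables, 1 for untreated and 1 for TNF-treated libraries. The unit was read from the values: each was a whole number of reads (tolerance 0.001) divided by 1 size factor per library, and the factors equalled median-of-ratios factors within each table. Values are called normalized counts. Libraries held 16.9 to 23.4 M reads.

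Members were matched by symbol. Genotypes were compared within each table with limma 3.58.1 (R 4.3.3), on log2(value + 1) with its trended variance. Genes had to reach 1 CPM in 3 or more libraries. P-values had Benjamini-Hochberg adjustment over all genes tested, and genes were called at an adjusted p below 0.05. The difference of genotype differences was a contrast over all 12 libraries. Counts over genes that passed on the Lyz2cre libraries alone, and separation of groups in CPM, were added after seeing the data. Untreated and TNF levels were set side by side as CPM with no test. Exon lengths and positions came from GENCODE vM21 (GRCm38) and promoters from RefSeq (GRCm38.p6). The fit was tested on simulated counts. Alternatives were edgeR 4.0.16, DESeq2 1.42.0, other filters, pseudocounts, thresholds and scaling, a replicate block and each library left out. Reads carried no molecular identifiers.

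Every library's value is given for the 10 members with the highest mean normalized count and the 10 with the largest called differences in each table, the others by means, ranges and counts. Members and lists were chosen with earlier results of these data known.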

Additional observations from a re-analysis of the deposited data

Results flagged for a closer look

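For 23 members the genotype difference itself differed between untreated and TNF-treated libraries by the limma contrast. The values are log2 differences of differences, with TNF minus without. It was above 0 for Emilin1 (0.46). It was below 0 by more than 3 for Vcan (-4.73), Fbn1 (-3.87) and Nid2 (-3.55). Between -3 and -1.5 lay Mfap2 (-2.89), Fbln5 (-2.57), Prelp (-2.56), Ogn (-1.91), Thbs2 (-1.89), Fbln1 (-1.81) and Fstl1 (-1.54). Between -1.5 and -1 lay Loxl1 (-1.40), Fn1 (-1.29), Sparc (-1.24), Dcn (-1.23), Tnc (-1.14), Nid1 (-1.11), Fbln2 (-1.09) and Aebp1 (-1.09). The smallest drops were those of Efemp2 (-0.84), Thbs1 (-0.77) and Lamc1 (-0.51).

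The fitted value of Fmod (-5.03) is no measured fold, since the gene had no read in the untreated Lyz2cre libraries and 3 or fewer in each TNF library. It moved to -3.56 with a pseudocount of 5 and to -5.52 with 0.5. Of the members named, Fmod, Mfap2, Fbln5, Prelp, Ogn, Fbln1 and Nid2 were below the filter with TNF. Ogn did not pass with a pseudocount of 0.5 (limma adjusted p = 0.0928), with edgeR (adjusted p = 0.91) or with DESeq2 (adjusted p = 0.846). Prelp and Mfap2 did not pass with edgeR (adjusted p = 0.12 and 0.0557).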

How the results depend on the processing

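The counts of members called higher without TNF ranged from 29 to 36 over all alternatives, with 0 lower in each, and with TNF from 15 to 23 higher. The low ends came from stricter filters or a left-out library, where fewer genes reached the filter. With each library left out in turn the counts were 29 to 33 higher without TNF, 15 to 20 higher and 1 lower with TNF, and 20 to 26 below 0 and 1 to 2 above 0 for the difference of genotype differences. Requiring at least 2-fold left 0 members lower with TNF and 0 above 0 for that difference, and scaling to library totals gave 2 above 0.

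Calls stayed on the same side of the threshold, with the same sign, for 31 of 33 members without TNF, 18 of 23 with TNF and 17 of 33 for the difference. This covers every alternative in which the gene was still tested. With a filter at 5 CPM, for example, 29 of the 33 were tested without TNF and 19 of the 23 with TNF. The sign of Fbn1 with TNF turned positive when scaled to library totals (0.31), with edgeR (0.0311) and DESeq2 (0.0169), and without the first Klf6-deleted (0.16) or the first Lyz2cre (0.11) TNF library, in a range from -0.17 to 0.16 with each library left out. The difference for Lama4 turned negative with a pseudocount of 5 (-0.68), edgeR (-0.0583) and DESeq2 (-0.0218), and without the third Klf6-deleted (-0.03), the second (-0.07) or the third (-0.33) Lyz2cre TNF library, in a range from -0.33 to 0.85. That for Hspg2 turned positive when scaled to library totals (0.0701) and without the first Lyz2cre TNF library (0.45), in a range from -0.46 to 0.45. None of these passed the test on either side, and the cause was not tested. Without the first or second Lyz2cre TNF library the difference for Thbs2 was -1.26 or -2.53. Calls gained for the difference in at least 1 alternative were those of Loxl2, Bgn, Smoc1, Postn and Thbs3 below 0 and Loxl3 above 0, and Dcn with TNF passed when scaled to library totals. For Nid1 it was -0.81 without the second untreated Lyz2cre library and no longer passed (limma adjusted p = 0.053).

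After removal of group means, same-numbered libraries of the 2 genotypes had correlations of 0.152, -0.0378 and 0.158 without TNF. With TNF they were -0.0209, -0.0123 and -0.0295. Unlike-numbered libraries had -0.230 to 0.114 without TNF and -0.00153 to 0.0224 with TNF. Since 0.152 and 0.158 lie above every unlike-numbered value without TNF, these correlations do not settle if the numbers are pairs. In the main fits the numbers were not taken as pairs. With the replicate number as a block, 33 members were higher without TNF, 20 higher and 1 lower with TNF, and 22 below 0 and 1 above 0 for the difference, and no member's call changed.

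Several members were too low to test with TNF: 13 of 36 did not reach 1 CPM in 3 libraries. With no filter, 23 of 36 were called higher and 1 lower with TNF, and 36 of 39 higher without TNF.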
